A study of Mus musculus with 8 samples.

Results

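The classical glucocorticoid-induced genes are 10 genes that hormone-bound glucocorticoid receptor switches on in many tissues: Tsc22d3, Zbtb16, Klf9, Klf15, Hif3a, Sgk1, Errfi1, Ddit4, Pdk4 and Cdkn1a. They were taken by symbol and not by a cut on measured values. Earlier results of these data were known when they were chosen. The count table of 32517 genes held all 10. All 10 also passed the filter on low counts that left 15373 genes for testing. RNA sequencing was done on whole eyes of untreated male mice, 12 weeks old, kept under a cycle of 12 h light to 12 h dark. The WT group carried no Cre, and the cKO group carried Cre and lacked Nr3c1, the gene of the glucocorticoid receptor, in the retina. Eyes were collected every 6 h at zeitgeber times ZT3, ZT9, ZT15 and ZT21, counted in hours from lights-on, and equal amounts of RNA from 3 mice were pooled for each genotype and time, giving 8 libraries. The sources used here do not name the promoter that drives Cre, the strain, or whether the WT mice carry the floxed allele. Per the labels, the mice were given no drug.

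The glucocorticoid receptor is a transcription factor held in the cytoplasm until it binds corticosterone, the main glucocorticoid of the mouse. It then enters the nucleus and binds DNA, often as a dimer on a palindromic element, and raises the transcription of nearby genes. Corticosterone in the blood follows a daily rhythm and is highest around the start of the active phase, which for mice is the dark. Several of the 10 genes are also controlled by other inputs: Cdkn1a by p53, Ddit4 by low oxygen and energy stress, Pdk4 by fatty acids and fasting, and Sgk1 by osmotic stress and the mineralocorticoid receptor.

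Total counts ran from 11748995 to 20309611 per library. Levels are given as CPM, counts scaled by a library size that TMM adjusted, and n = 4 libraries per genotype throughout, each at another time. No library was repeated at the same genotype and time, so p-values speak of the spread between 8 pools and not between mice. Nr3c1 had 78.2 to 145 CPM in WT and 32.5 to 38.2 CPM in cKO, groups that do not overlap, and its cKO mean was 29.4% of the WT mean. On the log2 scale this was -1.73 ± 0.18 (SE), with an edgeR p of 3.07e-05 unadjusted and 0.157 adjusted. The DESeq2 adjusted p was 4.44e-13 and the exact permutation p 0.0286. The protocols describe whole eyes, but the label fields for tissue and cell type give ciliary body and nonpigmented ciliary epithelium. Markers of that epithelium summed to 713 to 992 CPM over all libraries, whereas rod markers summed to 42910 to 57330 CPM and lens markers to 71740 to 159100 CPM. The lens sum was higher in cKO at all 4 times, as was each of its 10 genes. In such bulk samples, fewer cells of a type and less RNA per cell cannot be told apart.

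Hif3a, Zbtb16 and Klf9, 3 of the 5 transcription regulators among the genes, were lower in cKO than in WT at all 4 times, at 58.9%, 66.1% and 62.7% of the WT mean. Tsc22d3 was higher in cKO at all 4 times, and the log2 fold changes of the other 6 lay between -0.18 and 0.10. No member passed the adjusted threshold in edgeR, and neither did Nr3c1 or any other gene (0 of 15373, 0%). DESeq2 called Klf9 alone lower in cKO, of the 4 members to which it gave an adjusted p; it called 1.75% of 8518 genes lower and 4.66% higher. At an unadjusted p under 0.05 in edgeR, 3 members were lower (Hif3a, Zbtb16 and Klf9), against 11% of all genes, and 1 was higher (Tsc22d3), against 10.5%. Lower at all 4 times were the same 3 members, against 15.1% of all genes. Higher at all 4 times were Tsc22d3 and Sgk1, against 15.7%. In no member did all cKO libraries lie below all WT libraries, which held for 3.16% of all genes.

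**Figure D1:**
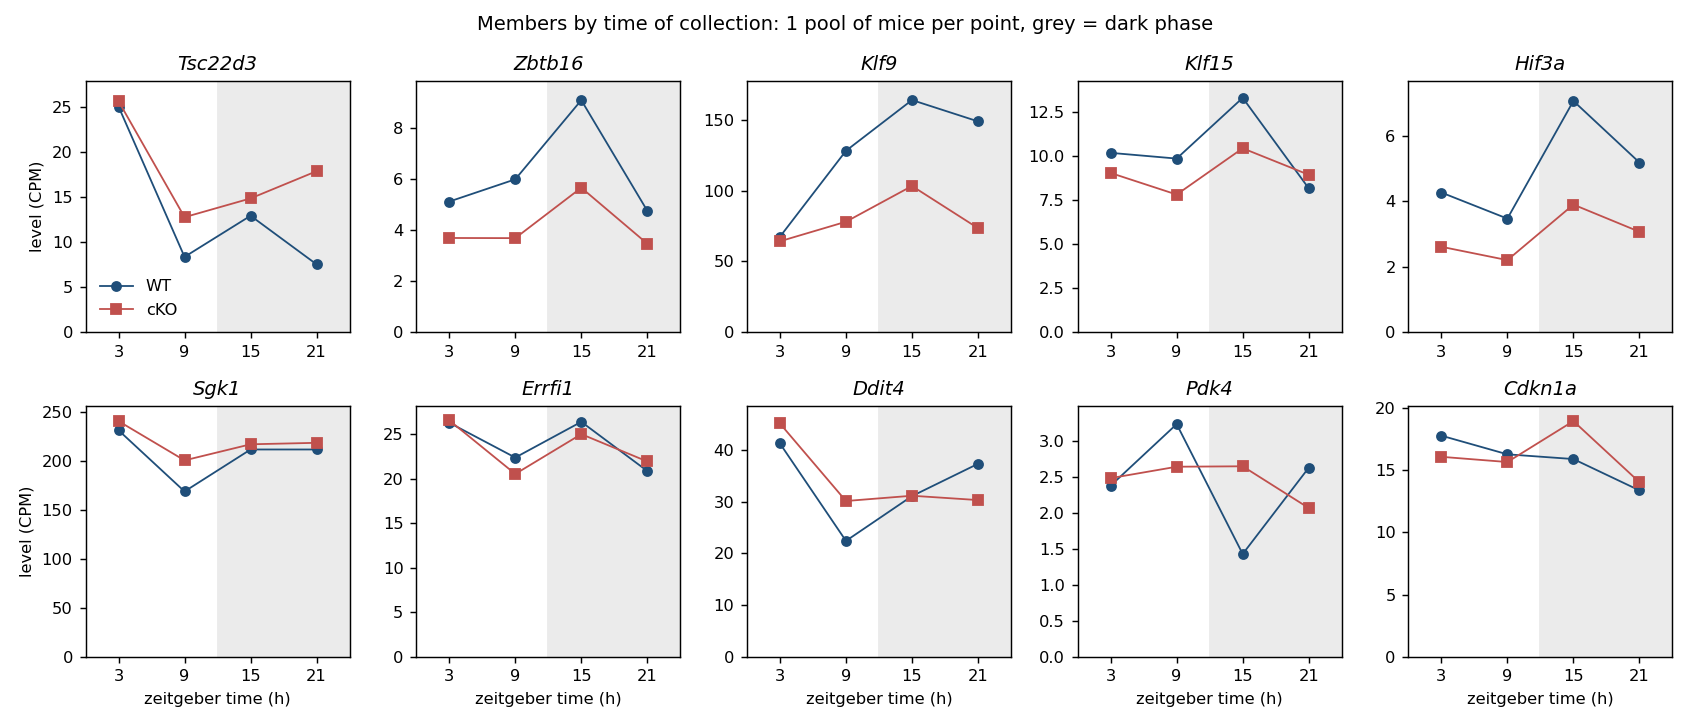
Level in CPM of each of the 10 genes (vertical axes, linear and starting at 0) against zeitgeber time in hours, with 1 pool of 3 mice per point and the dark phase in grey. The cKO points of Zbtb16, Klf9 and Hif3a lie below the WT points at all 4 times, those of Tsc22d3 above, and those of Errfi1 and Cdkn1a on both sides.

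Hif3a encodes a relative of the hypoxia-inducible factors, forms of which restrain the hypoxic response. The gene lies on chromosome 7, 17031507 to 17062427, minus strand (this and the other gene positions are from GENCODE M21 on GRCm38; the sources used here do not name the build of the counts). At ZT3, ZT9, ZT15 and ZT21, the order used for all genes, it stood at 4.28, 3.48, 7.08 and 5.19 CPM in WT, against 2.61, 2.21, 3.91 and 3.07 CPM in cKO. The cKO level was the lower one at each time, and over all times the groups overlapped only in that cKO at ZT15 exceeded WT at ZT9. The cKO to WT ratio stayed between 0.552 and 0.634 at all times. The fitted log2 fold change was -0.75 ± 0.15 (SE; 95% interval -1.11 to -0.38; edgeR adjusted p = 0.157), and exact permutation of the genotype labels, two-sided with 70 arrangements, gave p = 0.0571. The smallest p this permutation can give is 0.0286, and it does not keep the libraries of 1 time together. Exchanging genotype labels only within each time leaves 16 arrangements and cannot give a p below 0.125, which was the exact permutation p so obtained for Hif3a, Zbtb16, Klf9, Tsc22d3, Sgk1 and Nr3c1 alike. Hif3a was thinly covered, with 40 to 94 counts per library, and counting error alone allowed up to 36.2% to either side of a single value (exact Clopper-Pearson 95% intervals, which cover counting error only).

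Zbtb16 encodes a zinc finger transcriptional repressor known as PLZF (chromosome 9, 48654297 to 48836222, minus strand). In WT, Zbtb16 stood at 5.13, 6.00, 9.11 and 4.77 CPM, against 3.70, 3.69, 5.67 and 3.47 CPM in cKO. Again cKO was lower at every time, and the single overlap was cKO at ZT15, which exceeded WT at ZT3 and ZT21. The ratio ran from 0.615 to 0.729, and the fitted log2 fold change was -0.58 ± 0.14 (SE; edgeR adjusted p = 0.157; exact permutation p = 0.0857).

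Klf9 encodes a Krüppel-like repressor that takes part in circadian output and in limiting glucocorticoid responses (chromosome 19, 23141226 to 23168134, plus strand). In WT, Klf9 stood at 67.5, 128, 164 and 149 CPM, against 64.3, 78.1, 103 and 73.6 CPM in cKO. The genotypes were near each other at ZT3 and apart at the other times, with cKO to WT ratios of 0.953 at ZT3, 0.609 at ZT9, 0.63 at ZT15 and 0.493 at ZT21. Over all times the groups overlapped, since WT at ZT3 lay below 3 of the 4 cKO libraries. The mean was 127 ± 42.5 CPM (SD) in WT and 79.8 ± 16.7 CPM in cKO, and the fitted log2 fold change was -0.62 ± 0.16 (SE). Its adjusted p was 0.157 in edgeR and 0.0297 in DESeq2, and the exact permutation p was 0.114. Without both ZT3 libraries the log2 fold change was -0.79 and without both ZT21 libraries -0.47. The counting error of Klf9 was at most 6.37% of a value.

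Klf15, a Krüppel-like factor of amino acid and lipid metabolism, is on chromosome 6, 90462576 to 90475238, plus strand. In WT, Klf15 stood at 10.2, 9.87, 13.3 and 8.18 CPM, against 9.06, 7.83, 10.5 and 8.95 CPM in cKO. Levels in cKO were lower at 3 times and higher at ZT21, and the groups overlapped widely. The log2 fold change of -0.18 ± 0.13 (SE) has a 95% interval of -0.50 to 0.13 (edgeR adjusted p = 0.446).

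Tsc22d3 encodes GILZ, a leucine zipper protein that mediates anti-inflammatory actions of glucocorticoids (X chromosome, 140539528 to 140600659, minus strand). In WT, Tsc22d3 stood at 25.1, 8.37, 12.95 and 7.54 CPM, against 25.7, 12.8, 14.9 and 17.9 CPM in cKO. Both genotypes were highest at ZT3, where they differed by little, and cKO was the higher one at all 4 times, most at ZT21. The ratios were 1.02, 1.53, 1.15 and 2.37, so that the fitted log2 fold change of 0.50 ± 0.20 (SE) rested in large part on ZT21: without both ZT21 libraries it was 0.28 ± 0.16 (SE). The edgeR adjusted p was 0.219 and the exact permutation p 0.286. Its sign was opposite to that of Hif3a, Zbtb16 and Klf9.

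Sgk1 encodes a serine/threonine kinase that regulates ion channels and transporters (chromosome 10, 21882184 to 21999903, plus strand). It was the only one of the 9 members with a promoter sequence in which the full element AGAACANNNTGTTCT, the palindrome bound by a dimer of the receptor, was found. The windows searched run from 250 bases before to 50 after each annotated RefSeq start (GRCm38.p6); the element reads the same on both strands. It occurred in 3 of 32851 windows (0.00913%). The stretch around it is shown with the 2 arms of the element, 6 bases each, in capitals (a further single TGTTCT near its start, 242 bases before the transcript, is left in lower case), and for comparison a stretch of the Tsc22d3 promoter with the single arm found there, also in capitals.
Sgk1, chr10:21993641-21993775, plus strand: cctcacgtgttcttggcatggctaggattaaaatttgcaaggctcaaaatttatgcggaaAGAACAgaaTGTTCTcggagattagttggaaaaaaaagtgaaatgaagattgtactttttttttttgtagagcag
Tsc22d3, chrX:140600672-140600737, minus strand: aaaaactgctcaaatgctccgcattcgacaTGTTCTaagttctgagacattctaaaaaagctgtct
The Sgk1 element lies 189 bases before the start of 1 of its transcripts and within an intron of 5 of its 13 annotated transcripts. The Tsc22d3 arm lies 185 bases before a start and outside the gene. A single arm, AGAACA or TGTTCT, was found in 4 of 18 windows of members (22.2%), all of them of Sgk1 or Tsc22d3, and in 19% of all windows. An element with 1 exact arm and up to 2 mismatches in the other was found in 0 member windows and in 1.02% of all windows. A match describes letters and is not a binding site, and the windows leave out distant elements. Zbtb16 has no entry in the promoter table.

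In WT, Sgk1 stood at 231, 169, 211 and 211 CPM, against 240.3, 200.3, 217 and 218 CPM in cKO. The groups overlapped, cKO was slightly higher at each time, and the spread over times within a genotype was larger than the distance between genotypes. The log2 fold change was 0.10 ± 0.10 (SE; edgeR adjusted p = 0.589), and the 95% interval of the fold ran from 0.908 to 1.26. Counting error was at most 4.33% of a value.

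Errfi1 encodes MIG6, a feedback inhibitor of the EGF receptor (chromosome 4, 150853919 to 150868892, plus strand). In WT, Errfi1 stood at 26.3, 22.4, 26.4 and 20.8 CPM, against 26.5, 20.5, 24.98 and 21.9 CPM in cKO. The 2 series nearly coincided and crossed. Its log2 fold change was -0.03 ± 0.10 (SE), with a 95% interval of -0.25 to 0.20 (edgeR adjusted p = 0.874).

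Ddit4 encodes REDD1, an inhibitor of the mTORC1 kinase complex (chromosome 10, 59949669 to 59951834, minus strand). In WT, Ddit4 stood at 41.3, 22.4, 31.1 and 37.4 CPM, against 45.2, 30.2, 31.2 and 30.3 CPM in cKO. ZT3 was the highest time in both groups, and WT at ZT9 was the lowest library. The log2 fold change was 0.06 ± 0.13 (SE; 95% interval -0.25 to 0.37; edgeR adjusted p = 0.794).

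Pdk4, a kinase that turns off pyruvate dehydrogenase and so spares glucose, lies on chromosome 6, 5483351 to 5496309, minus strand. In WT, Pdk4 stood at 2.38, 3.24, 1.43 and 2.63 CPM, against 2.49, 2.65, 2.65 and 2.07 CPM in cKO. The lowest and the highest library were both WT, and cKO lay between them at all times. With 19 to 48 counts per library it was the least covered member: the 19 counts of WT at ZT15 alone allow 0.861 to 2.23 CPM. The log2 fold change of 0.05 ± 0.26 (SE) has a 95% interval of -0.56 to 0.65 (edgeR adjusted p = 0.925), the widest of the 10 members.

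Cdkn1a encodes p21, an inhibitor of cyclin-dependent kinases (chromosome 17, 29090976 to 29100727, plus strand). In WT, Cdkn1a stood at 17.8, 16.3, 15.9 and 13.4 CPM, against 16.1, 15.7, 18.9 and 14.03 CPM in cKO. The groups overlapped, and ZT21 was the lowest time in both. The log2 fold change was 0.03 ± 0.11 (SE; 95% interval -0.24 to 0.30; edgeR adjusted p = 0.895).

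**Figure D2:**
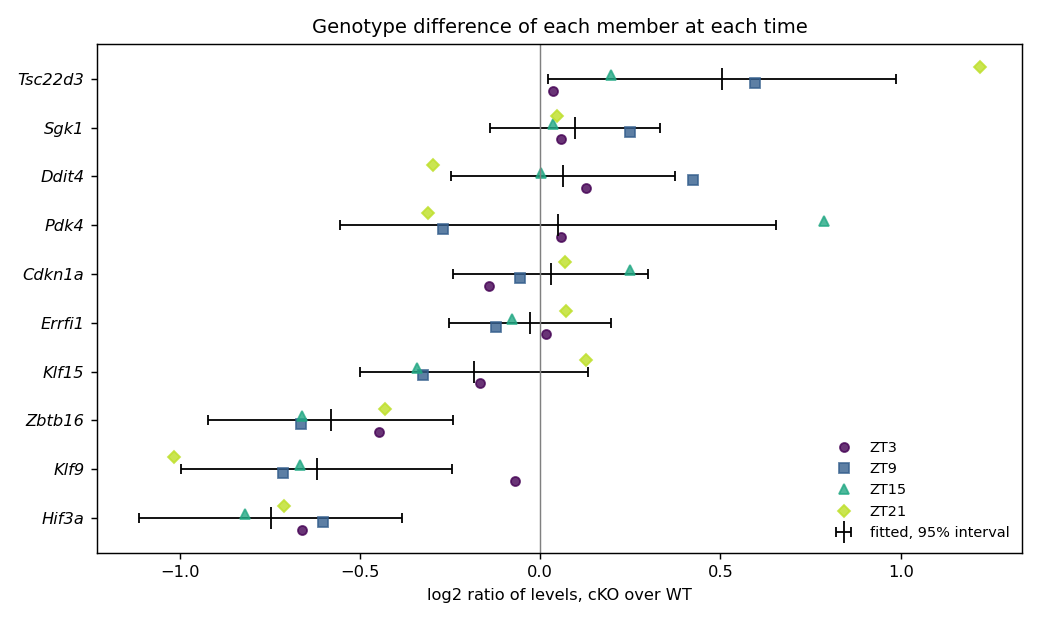
Log2 ratio of cKO over WT (horizontal axis) for each member, with 1 marker per time of collection and the fitted value with its 95% interval as a bar. All 4 markers of Hif3a, Zbtb16 and Klf9 lie below 0 and all 4 of Tsc22d3 and Sgk1 above. The ZT3 marker of Klf9 is the one nearest to 0 for that gene, and the ZT21 marker of Tsc22d3 the one farthest from it.

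Over the 10 members the fitted log2 fold changes were positive in 5 and negative in 5, with a median of 0.00027. Over all genes tested the median was -0.03, with 7009 positive and 8364 negative. The median absolute log2 fold change was 0.14 for the members and 0.199 for all genes. The members did not share a direction.

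Marker sums of 7 of 16 cell type lists were higher in cKO at all 4 times: lens, cone, Müller glia, inner retinal neurons, retinal pigment epithelium, smooth muscle and immune cells. Each of the 4 smooth muscle genes and 5 of the 7 Müller genes were higher at all 4 times. So were 2 of 6 cone, 3 of 8 inner retinal, 2 of 5 pigment epithelium and 2 of 5 immune genes. Another immune gene was lower at all 4 times. Over all genes tested, 15.7% were higher and 15.1% lower at all 4 times. Smooth muscle markers summed to 299.9 to 416 CPM in WT against 376 to 513 CPM in cKO, and Müller markers to 1467 to 2042 against 2006 to 2327 CPM. The sums of 2 lists were lower in cKO at all 4 times. Erythrocyte markers summed to 1113 to 10240 CPM in WT and 667 to 1121 CPM in cKO, and fibroblast markers to 540.3 to 1052 and 491 to 819 CPM. Each of the 5 erythrocyte genes and 2 of the 4 fibroblast genes were lower at all 4 times. None of the markers in these lists was at 0 across all libraries. The mitochondrial share of the counts was also higher in cKO at all 4 times: 6.11% against 5.49% in WT at ZT3, 3.69% against 1.31% at ZT9, 2.08% against 1.35% at ZT15 and 3.63% against 1.09% at ZT21. The smallest ratio of this share was at ZT3 and the largest at ZT21, the times at which the genotypes were nearest and farthest apart for Klf9 and Tsc22d3. The part of these markers and of the mitochondrial share in the lower levels of Hif3a, Zbtb16 and Klf9 and the higher level of Tsc22d3 was not tested. With lens, mitochondrial and globin genes taken out before scaling, the log2 fold changes were -0.75 for Hif3a, -0.58 for Zbtb16, -0.62 for Klf9 and 0.51 for Tsc22d3. That setting changes only the scaling of the libraries, so it does not test the part of the markers or of the mitochondrial share.

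The second comparison was across the day. Zbtb16, Klf9, Klf15 and Hif3a were highest at ZT15 in both genotypes, whereas 5.93% of all genes were. Tsc22d3, Sgk1 and Ddit4 were highest at ZT3 in both, as were 24.8% of all genes. These groupings by phase were noticed after the values were seen. A 24 h wave common to both genotypes passed the adjusted threshold in edgeR for 0 members and for 0 genes (0%). Unadjusted, 2 members were under 0.05 (Klf9 and Hif3a), against 17.8% of all genes. DESeq2 called Klf9, adjusted p = 0.0437, and 4.48% of 13584 genes.

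The wave of Klf9 had a peak to trough fold of 1.95 and a peak at 15.3 h (edgeR adjusted p = 0.262). That of Tsc22d3 had 1.91 and a peak at 2.09 h (edgeR adjusted p = 0.387), Hif3a had 1.79 at 17.5 h (0.278) and Zbtb16 1.70 at 13.97 h (0.283). Errfi1 had a fold of 1.03. The order of these folds depended on single libraries: leaving out 1 library gave 1.57 to 2.25 for Klf9, 1.29 to 2.70 for Tsc22d3, 1.61 to 1.99 for Hif3a and 1.44 to 1.95 for Zbtb16. Without both ZT15 libraries the fold of Tsc22d3 was 5.39, and that of Zbtb16 was 1.16. With a time left out, the wave follows the means of the remaining times exactly. Its peak and trough can then lie beyond the measured levels, which for Tsc22d3 spanned 3.33-fold in WT and 2.01-fold in cKO. The median fold over the members was 1.42, against 1.38 over all genes. With 4 times spaced 6 h apart, a wave cannot be told from other shapes with the same phase, so these peak times describe a contrast between time points.

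Adipocyte markers were also highest at ZT15 in both genotypes, with sums of 85.4, 186, 289 and 138 CPM in WT, against 114, 205, 270.3 and 109 CPM in cKO. The erythrocyte sum of 10240 CPM was that of WT at ZT15, and in cKO it was likewise highest at ZT15, at 1121 CPM. The mitochondrial share given above was highest at ZT3 in both genotypes. Their part in the time courses of the members was not tested.

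**Figure D3:**
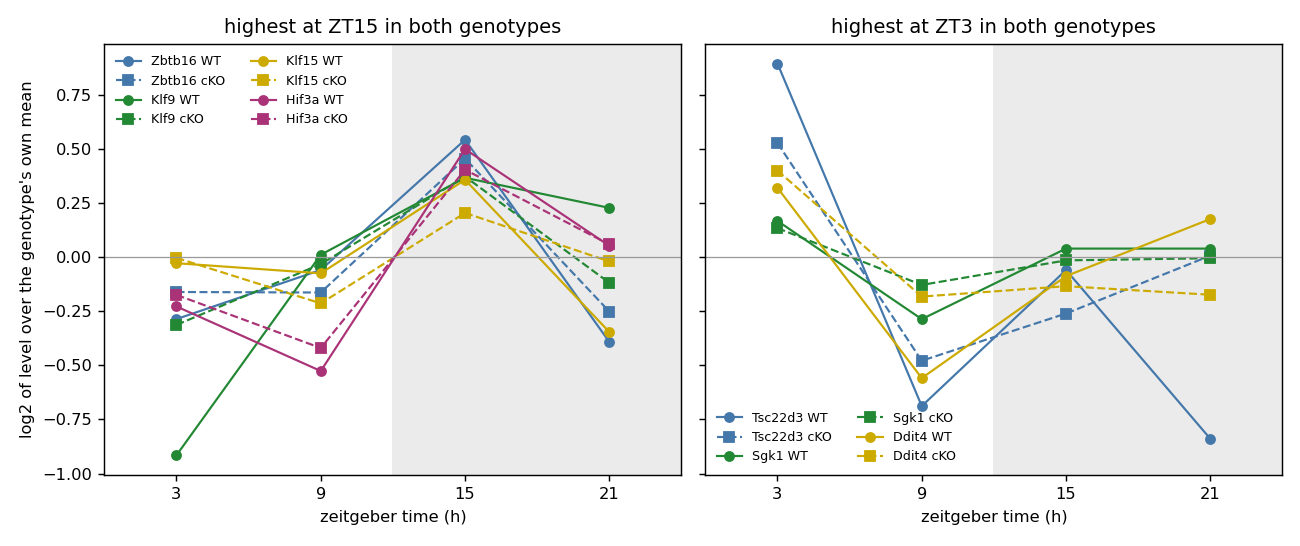
Log2 level of each gene over the mean of its own genotype (vertical axis) against zeitgeber time in hours, with 1 pool per point, solid lines for WT, dashed lines for cKO and the dark phase in grey. The left panel holds the 4 genes highest at ZT15 in both genotypes and the right panel the 3 highest at ZT3. On this scale the lines of the genotypes part for Tsc22d3 at ZT21 and for Klf9 at ZT3. The Klf9 levels themselves were nearest at ZT3 (67.5 CPM in WT, 64.3 CPM in cKO), and the gap there reflects the different genotype means (127 and 79.8 CPM).

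The third comparison was whether the time course differed between genotypes. The interaction of the wave with genotype passed the adjusted threshold for 0 members and 0 genes in edgeR (0%), and unadjusted for 0 members against 3.08% of all genes. DESeq2 called 110 genes and 0 members. Largest over smallest level across times was larger in WT than in cKO for 8 of 10 members, all but Errfi1 and Cdkn1a, but this held for 79.2% of all genes. It was 3.33-fold in WT and 2.01-fold in cKO for Tsc22d3, and 2.43-fold and 1.61-fold for Klf9. For Hif3a it was 2.04-fold and 1.77-fold. The members' share is near that of all genes.

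Compared per kilobase of exon, which allows levels to be set between genes, Sgk1 was the highest in WT at 41.9 ± 5.38 CPM per kilobase (SD). Klf9 followed at 26.4 ± 8.82 and Ddit4 at 18.8 ± 4.68, and the ranges of those 2 overlapped. Errfi1 had 6.69 ± 0.778, Cdkn1a 4.45 ± 0.514, Klf15 3.73 ± 0.769 and Tsc22d3 3.11 ± 1.87. Cdkn1a and Klf15 overlapped, as did Klf15 and Tsc22d3. Zbtb16 had 1.18 ± 0.374, Hif3a 0.746 ± 0.231 and Pdk4 0.690 ± 0.214, each overlapping its neighbour in the order. The members that were lower in cKO at all times were therefore found both near the top and near the bottom of this order.

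Across the 8 libraries some members varied together and others in opposite ways; these correlations are descriptions over libraries that share depth and composition with each gene. Pearson's r was 0.91 for Sgk1 with Ddit4, 0.87 for Zbtb16 with Klf15 and 0.83 for Zbtb16 with Hif3a, and -0.81 for Tsc22d3 with Klf9. With Nr3c1 itself r was 0.76 for Klf9, 0.71 for Hif3a, 0.69 for Zbtb16, 0.37 for Klf15 and 0.0 for Errfi1. It was -0.06 for Pdk4, -0.18 for Cdkn1a, -0.23 for Ddit4, -0.47 for Sgk1 and -0.60 for Tsc22d3. Since Nr3c1 divides the libraries by genotype without overlap, these values are not separate from the genotype differences given above. The genes whose levels were most like the members' mean standardized level, among 12141 genes, were Med31 (r = 0.949), Crtc2 (0.909), Galnt3 (0.899), Nectin4 (0.896) and Pcdh1 (0.878). These are the largest of 12141 values over 8 libraries, so high r is partly a result of the selection. The mean joins members that varied in opposite ways.

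Of 31 other genes known to be induced by glucocorticoids, 29 were tested, and none passed the adjusted threshold in edgeR. Unadjusted, 3 were higher and 4 lower in cKO, against 10.5% and 11% of all genes, and DESeq2 called 1, Glul, which makes glutamine in Müller glia and was higher in cKO (1483 ± 381 CPM in WT, 2069 ± 305 CPM in cKO, SD; DESeq2 adjusted p = 0.0411). The Müller marker sum was likewise higher in cKO at all 4 times, and its part in the level of Glul was not tested. Of the 29, 4 were higher and 5 lower in cKO at all 4 times, against 15.7% and 15.1% of all genes. The common rhythm was under 0.05 unadjusted for 9 of them and adjusted for 0 in edgeR, against 17.8% and 0% of all genes. DESeq2 called 3, Sult1a1, Lpin1 and Arrdc3, against 4.48% of all genes. The median log2 fold change was -0.09, with 11 positive and 18 negative. Nfkbia, an inhibitor of NF-κB, had the most negative of the named values at -0.62 ± 0.22 (SE), followed by Mertk, a phagocytosis receptor, at -0.38 ± 0.14. Angptl4, an inhibitor of lipoprotein lipase, had 0.61 ± 0.20, at low mean levels of 2.37 CPM in WT and 3.64 CPM in cKO. Fkbp5, a co-chaperone that curbs the receptor, had 27.9 ± 11.4 CPM in WT and 22.7 ± 4.77 CPM in cKO (SD; log2 fold change -0.25 ± 0.14, SE). Like Hif3a and Zbtb16, Fkbp5 was highest at ZT15 in both genotypes, with 44.5 CPM in WT, against 29.5 CPM in cKO. Per1, a clock gene, and Dusp1, a phosphatase of MAP kinases, had log2 fold changes of -0.01 ± 0.09 and 0.08 ± 0.11 (SE).

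Among genes that glucocorticoids repress, 4 of 15 passed the filter on low counts and none passed the adjusted threshold in edgeR. Unadjusted, 1 of them was higher in cKO: Mmp9, a matrix protease, with a log2 fold change of 0.35 ± 0.15 (SE). Icam1 had -0.16, Ptgs2 -0.06 and Vcam1 0.04. Ptgs2 was low, with a mean of 1.31 CPM in WT and 1.23 CPM in cKO. For Nr3c2, the mineralocorticoid receptor, which binds the same hormone, the log2 fold change was -0.06 ± 0.10 (SE). For Hsd11b1, which regenerates active hormone inside cells, it was 0.45 ± 0.23, at low mean levels of 1.51 CPM in WT and 2.07 CPM in cKO.

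**Figure D4:**
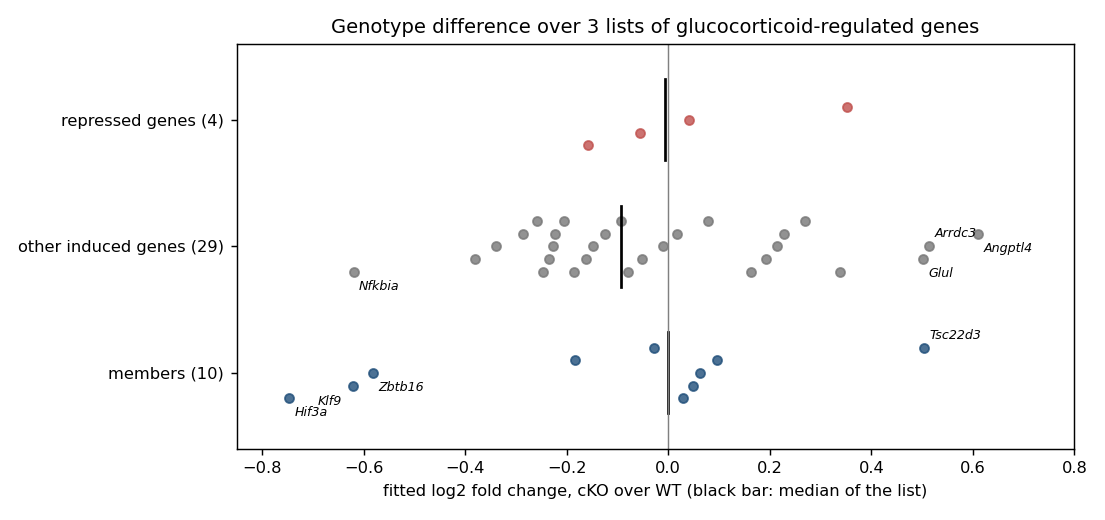
Fitted log2 fold change of cKO over WT (horizontal axis) for the 10 members, the 29 other induced genes and the 4 repressed genes tested, with 1 point per gene and the list median as a black bar. Points of each list lie on both sides of 0, and the medians are 0.00027, -0.09 and -0.01.

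Lists of the other inputs were read the same way, against 10.5% of all genes higher unadjusted and 4.66% called higher by DESeq2. Of 10 hypoxia genes 1, the glucose transporter Slc2a1, was higher unadjusted (0.44 ± 0.15, SE) and 0 passed in edgeR. Of 9 p53 targets tested, 3 were higher unadjusted and 0 passed in edgeR, and DESeq2 called Ccng1 and Perp higher; Ccng1 stood 0.41 ± 0.10 higher on the log2 scale (SE; DESeq2 adjusted p = 0.025). Of 7 genes of the fatty acid receptors (PPAR), 1 was higher unadjusted, Angptl4, and 0 passed for genotype in edgeR or DESeq2.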

How the data were processed

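The authors deposited raw counts per gene symbol, per the file header and values, not normalized. The sources used here do not name the aligner, counting program, genome build, annotation or strand, so reads shared with overlapping, antisense or paralogous genes cannot be told apart. The table has 32544 entries; 27 whose symbols had become dates were left out (0.123 to 0.145% of counts). No column lacked a sample (0). Counts were fitted in R 4.3.3 with edgeR 4.0.16 (TMM, filterByExpr, quasi-likelihood F test, Benjamini-Hochberg over 15373 genes, threshold 0.05). The genotype fit had time as a factor (3 residual degrees of freedom), since a WT and a cKO pool share each time. This is the only pairing in the labels. Because edgeR also draws on the other genes for the variance, the members' genotype p-values and 95% intervals rest on 7.07 degrees of freedom. The rhythm fit had cosine and sine terms of 24 h (4), and the difference fit their interaction (2). DESeq2 1.42.0 and limma 3.58.1 served as alternatives, beside other scalings, filters and left-out libraries. Single-gene tests were exact permutation tests in scipy 1.17.1. The code of the fits was checked on simulated counts with known changes. These counts were drawn independently for each gene, so this does not show how well the fits suit the real libraries. Named were all members, Nr3c1, Fkbp5, Per1 and Dusp1. Per list of receptor, other induced or repressed genes, named were also the genes past the threshold and the 2 with the smallest p in each direction. For the hypoxia, p53 and PPAR lists it was the gene with the smallest p. Other genes named were chosen after their values were seen. The members and lists were chosen with earlier results of these data known. Promoters are from RefSeq (GRCm38.p6).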

Additional observations from a re-analysis of the deposited data

Results flagged for a closer look

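In cKO, Zbtb16 at ZT15 stood apart from the other 3 times, with 5.67 CPM against 3.47 to 3.70 CPM, a gap of 0.898 of the whole range. Ddit4 in cKO stood apart at ZT3, with 45.2 CPM against 30.2 to 31.2 CPM, a gap of 0.932 of the range. Both gaps exceed Dixon's 95% critical value. The 4 values of a group differ in time of collection and are not repeats, and 22 groups were examined, of which chance flags about 1 in 20.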

How the results depend on the processing

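For genotype, DESeq2 called 546 genes and 1 member (Klf9), leaving 6 members with no adjusted p. With no filter on low counts, edgeR called 7 genes, Nr3c1 among them (edgeR adjusted p = 0.0061), and no member. The other settings, limma among them, called 0. Without the replicate block, that is with time left out, 0 genes and 0 members passed and the members' median was -0.0011. That median was -0.086 without both ZT15 libraries, and -0.083 to 0.013 leaving out 1 library. For the common rhythm, 609 genes passed in DESeq2, 3 with no filter, 1543 without both ZT9 libraries and 325 without both ZT21 libraries, and 0 to 1 leaving out 1 library; 1 member passed in DESeq2 (Klf9) and 1 without both ZT21 libraries (Tsc22d3, adjusted p = 0.0499 in edgeR). For the difference in rhythm, DESeq2 called 110 genes, and leaving out 1 library gave 0 to 1442 genes and 0 to 1 members; Tsc22d3 was the member, without WT at ZT9 or at ZT15. Signs near 0 turned: Errfi1 was 0.0030 and Ddit4 -0.054 without both ZT9 libraries, Pdk4 -0.19 and Cdkn1a -0.045 without both ZT15 libraries, and with length and GC trends removed Errfi1 was 0.0019, Ddit4 -0.065 and Cdkn1a -0.020. Leaving out 1 library gave -0.060 to 0.0075 for Errfi1, -0.053 to 0.20 for Ddit4, -0.19 to 0.19 for Pdk4 and -0.043 to 0.10 for Cdkn1a. Hif3a, Zbtb16, Klf9, Klf15, Tsc22d3 and Sgk1 kept their direction in all settings run. Hif3a and Pdk4 were not tested at a minimum of 5 CPM in 4 libraries. Exchanging labels within times, added after the data were seen, tests the observed mean log2 differences and so cannot change their sign. Its p cannot pass the threshold. The causes were not tested. Leaving out 1 library leaves the difference fit 1 residual degree of freedom. Depth limits Pdk4, Hif3a and Zbtb16.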
